A study of Oryza sativa with 2 samples.

Results

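Calcium sensors and the kinases that calcium regulates were followed through 74 rice genes, read by 93 probe sets, out of 17905 genes that had a probe set of their own among the 57258 rice probe sets of the array. A gene was taken as a member when its symbol or a synonym, with a leading Os dropped, consisted of CML, CBL, CIPK, CPK or CDPK followed by a number. The sensors comprised 23 calmodulin-like (CML) and 7 calcineurin B-like (CBL) genes, 30 in all. The kinases comprised 24 CBL-interacting protein kinase (CIPK) and 20 calcium-dependent protein kinase (CPK, also written CDPK) genes, 44 in all. In 5 of the 74 the symbol itself matched, and in the others a synonym did. A further 15 genes of such names in the gene table, among them CBL1, CIPK3, CIPK9 and CIPK15, had no probe set assigned to them alone and were not analysed here.

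The leaves with yellow tips came from rice recombinant inbred lines named F9Y, labelled mutant, and were taken in the vegetative stage. The green leaves came from recombinant inbred lines named F9G, labelled normal green, also in the vegetative stage. The labels trace both sets of lines to parental lines that they do not name, and the series concerns the early-senescing rice mutant SA0420. Titles speak of leaves and descriptions of leaf tips, so which part of the leaf was extracted is not settled, and the number of plants or lines behind each RNA is not stated. Each group had 1 array, so every value below compares 1 array with 1 array, no difference has a replicate check, and no test between the groups was possible. In RNA from leaf tissue, fewer cells of a type and less RNA per cell cannot be told apart.

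Calcium entering the cytosol is read by proteins with EF-hand loops, which change shape when they bind it. Calmodulin-like and CBL proteins have no enzyme activity of their own: they act by binding other proteins, and CBL proteins dock onto the NAF motif of CIPK kinases and bring them to membranes. CPK proteins join the sensor and the kinase in 1 chain, with EF-hands beside the kinase domain, and so need no partner to be switched on. In plants these modules are known from the control of potassium and sodium transport, nitrate and ammonium uptake, stomatal movement and responses to drought, salt, cold and pathogens.

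Signals are linear intensities scaled to a common overall level on both arrays: the mean with 2% trimmed from each end was 500.1 on each. The log2 difference, yellow minus green leaf tip, was taken after adding a pseudocount of 22.6, and its median over the 28629 probe sets whose mean signal reached 86.0 was set to 0. A gene was the mean of its kept probe sets, and "2-fold" means a log2 difference of at least 1 in size on this scale, which understates folds of dim genes. All 8 leaf marker genes found, Rubisco small subunit and activase genes among them, were above the bacterial control probe sets on both arrays, whose highest signals were 56.9 on the yellow and 97.6 on the green leaf tip array. Of 4 seed storage protein genes, 2 exceeded those controls in yellow and 3 in green leaf tips, with summed signals of 3512 in yellow and 5078 in green leaf tips; their part in the results was not tested. The 27 probe sets of hybridization spike-in RNAs had differences of -0.43 to 0.86 with a median of 0.19, and none reached 2-fold. These differences include any difference in scaling between the arrays, which was not given. Probe sets of the same gene differed with an SD of 0.77 in the dimmest of 5 equal bins of kept signal and 0.22 in the brightest, a spread that covers probes only, not plants or extractions.

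Of the 74 genes, 63 passed the filter on low values, 25 sensors and 38 kinases. In yellow leaf tips 5 CIPK genes (CIPK2, CIPK11, CIPK8, CIPK26 and CIPK31) and CPK23 were higher by at least 2-fold, while CIPK5 among the kinases and CML29 among the sensors were lower. No sensor that passed the filter was 2-fold higher. Thus 0 of 25 sensors and 6 of 38 kinases (15.8%) were higher, where 5.57% of all 14697 kept genes were, and 1 of 25 sensors and 1 of 38 kinases (2.63%) were lower, where 3.18% of all were. With centring on the spike-in controls, chosen after seeing the data, 3.89% of all genes were higher and 5.43% lower, the kinases higher were 2 (CIPK2 and CIPK11), and the sensors lower were 2 (CML29 and CML16). Counted by probe set, 7 of 47 kept kinase probe sets and 0 of 29 kept sensor probe sets were higher, beside 5.82% of all kept probe sets, and 1 and 2 were lower, beside 6.29%.

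The median log2 difference was 0.11 for sensors, 0.08 for kinases and 0.08 for all kept genes. The gap between sensors and kinases was 0.02, and its size and direction depended on the settings: it was 0.19 without a filter, 0.18 with a stricter filter, -0.18 above the bacterial controls and -0.18 without probe sets whose names mark shared probes. Above 0 lay 13 of 25 sensors and 20 of 38 kinases, against 56.6% of all genes. Among genes that passed the filter, the highest sensor, CML18, stood at 0.78, and 6 kinases stood above 1. Without a filter, 4 of 30 sensors (13.3%) and 7 of 44 kinases (15.9%) were 2-fold higher, beside 7.68% of all genes. That setting also shifts the centre, and at the main centring CML14 and CML28 stayed under 2-fold, at 0.98 each. So did CML4, even with its probe set below the filter included. The contrast in counts thus changed with the filter and the centring together, and it was not tested. The middle 50% of sensors ran from -0.34 to 0.46 and that of kinases from -0.40 to 0.49, both wider than the -0.25 to 0.39 of all genes.

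**Figure D1:**
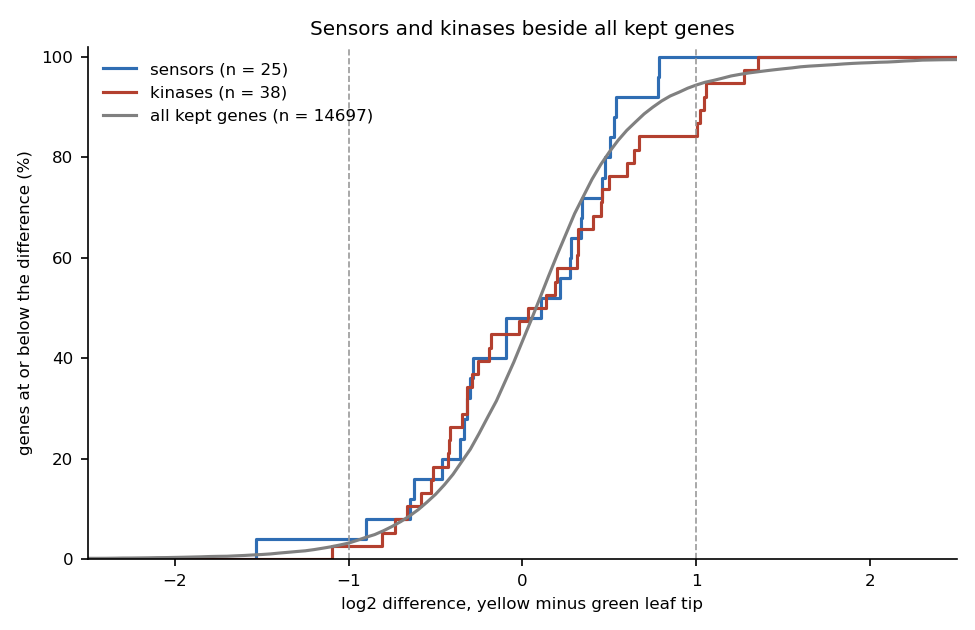
Share of genes (y axis, percent) at or below each log2 difference, yellow minus green leaf tip (x axis), for 25 sensors, 38 kinases and all 14697 kept genes, with dashed lines at a fold of 2. The sensor and kinase steps run together through the middle, and above 0.78, the highest sensor, only kinase steps are left, the last at 1.35.

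By family, the CIPK median was 0.32 and the CPK median -0.10, a gap of 0.42. The CML and CBL medians were -0.09 and 0.19. The CIPK genes also had the widest spread, an SD over genes of 0.70, against 0.50 for CPK, 0.60 for CML and 0.46 for CBL genes, and 0.63 for all genes. These SDs describe genes, which are not replicates. The sign of the CML median depended on the settings: it was 0.13 after a loess on signal and 0.31 without a filter. Without probe sets whose names mark shared probes the CIPK median was 0.23 and the CPK median 0.13, and their gap was 0.10.

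**Figure D2:**
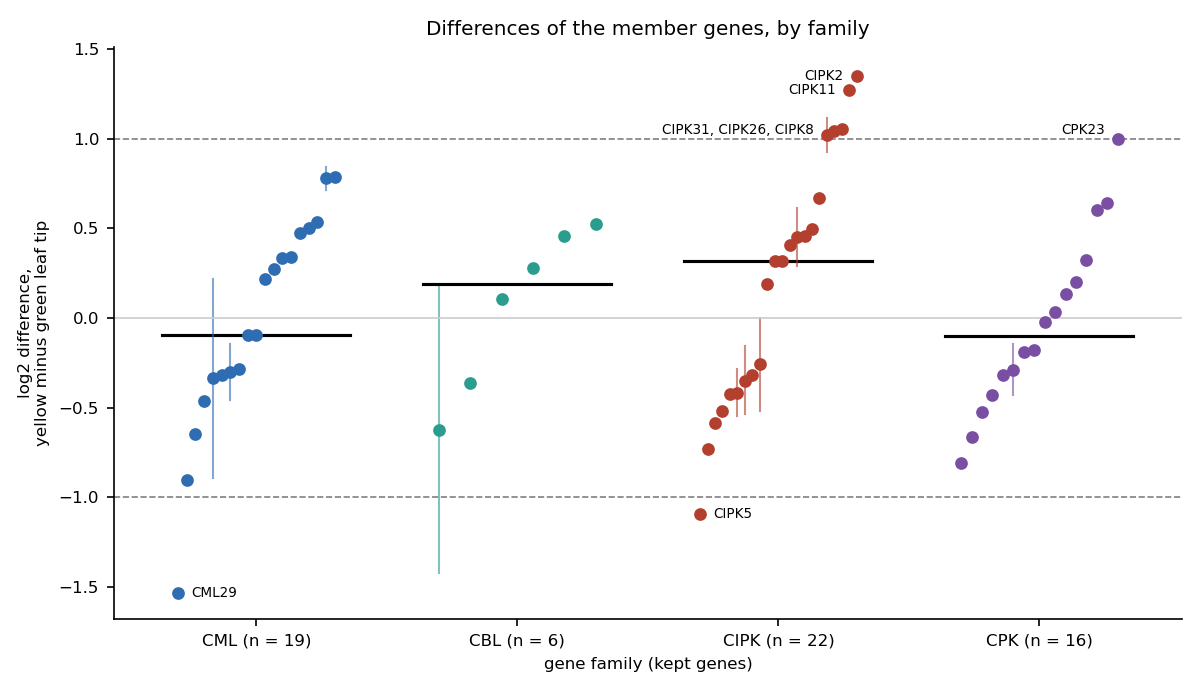
Log2 difference, yellow minus green leaf tip (y axis), of each kept gene by family (x axis), with black bars at the family medians, thin lines over the range of a gene's kept probe sets and dashed lines at a fold of 2. The 5 named CIPK genes and CPK23 lie at or above the upper line, CIPK5 and CML29 below the lower one.

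Among the calmodulin-like sensors, CML29 had the largest difference of any member. Its probe set read 3098 in yellow and 9345 in green leaf tips, a log2 difference of -1.54 (2.90-fold lower), rank 123 from the lowest of the 14697 kept genes. The spread between probe sets at this signal was 0.22, and the difference stayed between -1.73 and -1.50 over 11 other settings. CML16 came next, with 2874 in yellow and 5580 in green leaf tips (-0.90). CML10 had 2674 and 4347 (-0.65). These 3 sensors all had their higher signal in green leaf tips by more than the probe-set spread at their signal.

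At the other end, CML18 had 5303 in yellow and 3178 in green leaf tips (0.78). CML4, a sensor reported in rice to improve drought tolerance when overproduced, was read by 2 kept probe sets, with 2160 and 1793 in yellow and 1235 and 1124 in green leaf tips (0.78). A dimmer CML4 probe set below the filter read 91.2 and 22.2, also higher in yellow leaf tips. CML17 read 116 in yellow and 76.0 in green leaf tips (0.54), within the probe-set spread of 0.77 at this signal. Its green signal lay inside the range of the bacterial controls, as did that of CML3 (78.8).

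CML1, listed also as OsCAM61, had 10191 in yellow and 13179 in green leaf tips (-0.32). CML5, listed also as OsCAM-2, averaged 267 and 364 over 2 probe sets (-0.30). CML7 (-0.09), CML9 (-0.09), CML31 (0.22) and CML11 (0.27) stayed within the probe-set spread at their signals. The probe sets of CML27 pointed opposite ways: 1 read 1172 in yellow and 1041 in green leaf tips (0.22) and the other 62.7 and 141 (-0.89), so no direction is given for this gene. Of the others, CML8 had 6281 in yellow and 4588 in green leaf tips (0.50), CML13 3628 and 2959 (0.34), CML30 1499 and 1227 (0.33), and CML3 114 and 78.8 (0.48). CML15 had 602 and 870 (-0.47), and CML20, which overlaps another gene in the gene table, 78.2 and 105 (-0.29). CML3 and CML20 also lay within the probe-set spread at their signals, 0.77, and CML5 within 0.34. By the mean of their probe sets 9 CML genes were above 0 and 10 below, CML27 among those below.

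The 6 kept CBL genes stayed within 2-fold by the mean of their probe sets. CBL4, the rice counterpart of the Arabidopsis salt tolerance sensor SOS3, had 355 in yellow and 249 in green leaf tips (0.52). CBL2 had 692 and 515 (0.46), and CBL3 1875 and 1599 (0.28); in Arabidopsis both act at the vacuole membrane. CBL10, which in Arabidopsis protects shoots from salt, had 742 and 713 (0.11). Both CBL3 and CBL10 stayed within the probe-set spread of 0.30 at their signals. CBL6 had 3163 in yellow and 4215 in green leaf tips (-0.36).

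CBL9 was uncertain. Its probe sets, both with names that mark possible cross-hybridization, read 73.5 in yellow and 245 in green leaf tips (-1.43) and 124 and 112 (0.17). They differed by 1.60, and no direction is given for the gene.

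**Figure D3:**
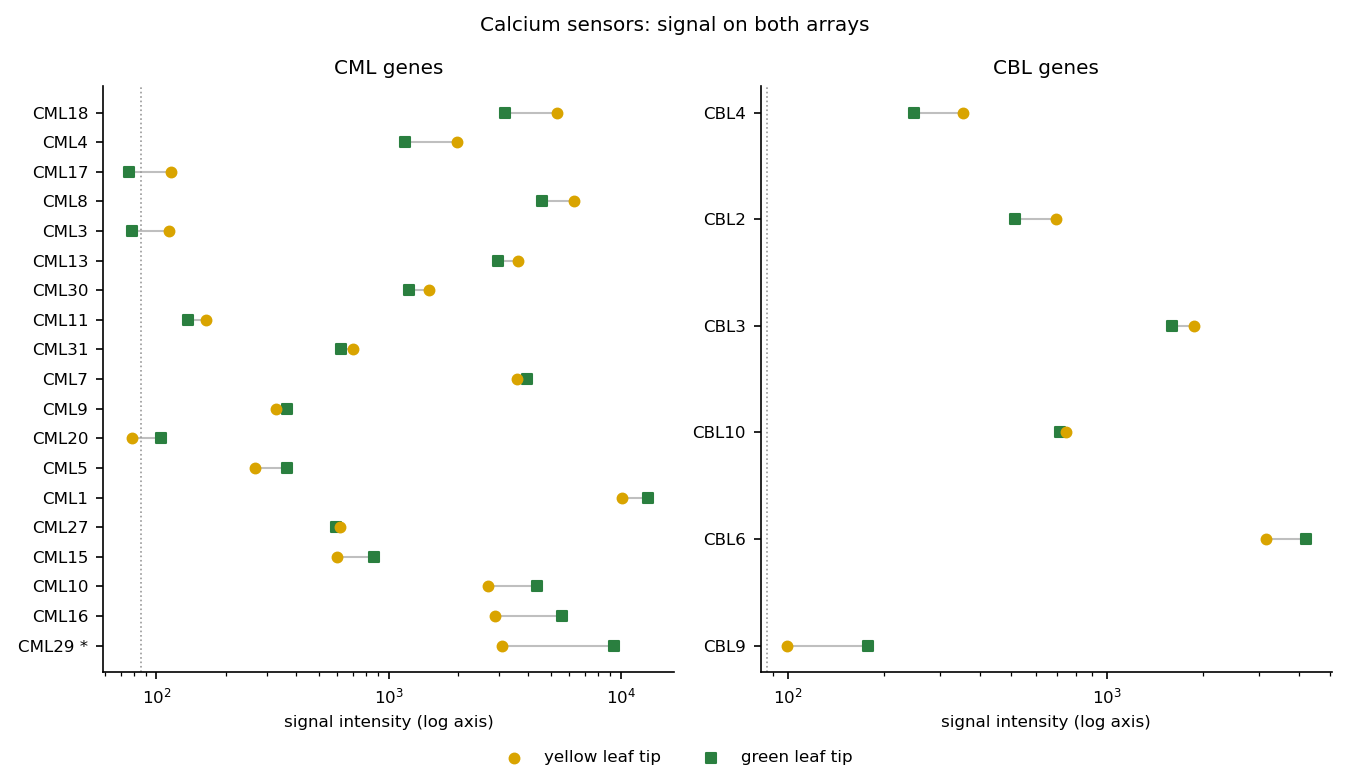
Signal intensity (x axis, log scale) of each kept CML and CBL gene (y axis, ordered by log2 difference) on the yellow (circles) and green (squares) leaf tip array, with the filter level of 86.0 as a dotted line and an asterisk at genes past 2-fold. Only CML29, at 3098 in yellow and 9345 in green leaf tips, carries an asterisk; signals of different genes are not comparable.

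Among the CIPK kinases, CIPK2 was the highest member. Its kept probe sets read 8224 and 1294 in yellow leaf tips, against 3356 and 506 in green leaf tips, with log2 differences of 1.34 and 1.37, and so 2.55-fold higher by their mean (1.35). The brighter of these has a name that marks possible cross-hybridization. A dimmer CIPK2 probe set, below the filter, read 118 in yellow and 17.6 in green leaf tips. All 3 probe sets were thus higher in yellow leaf tips, and CIPK2 had rank 434 from the highest of the 14697 kept genes. CIPK2 lies next to CIPK29 in the gene table, with no gene between them. CIPK29 had 440 in yellow and 278 in green leaf tips (0.67), the sixth highest of the 22 kept CIPK genes.

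CIPK11 had 390 in yellow and 154 in green leaf tips (1.27, 2.42-fold); its probe set has a name that marks shared probes, and the gene overlaps a pseudogene in the gene table. CIPK8, which in Arabidopsis takes part in the response to nitrate, had 1951 and 960 (1.06). CIPK26 had 298 and 139 (1.04). CIPK31, listed also as CIPK3, was first described in rice as the calcineurin B-like-interacting kinase OsCK1, responsive to cold, light and sugar. It is a different gene from the CIPK3 without a probe set of its own. Both of its probe sets have names that mark shared probes or possible cross-hybridization. They read 3810 and 387 in yellow leaf tips and 1806 and 200.5 in green leaf tips (1.12 and 0.93, mean 1.02). The last 3 genes passed the threshold by less than 0.1, and each lost the call under at least 3 of the other settings, whereas CIPK2 kept it under 11 of 11 and CIPK11 under the 9 in which it was measured.

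CIPK5 was the only kinase lower by 2-fold, with 761 in yellow and 1710 in green leaf tips (-1.09), and it stayed past 2-fold under 11 other settings (-1.28 to -1.04). CIPK20 had 85.7 and 164 (-0.73), within the probe-set spread of 0.77 at this signal. CIPK6 had 240 in yellow and 386 in green leaf tips (-0.59). CIPK14, a kinase that in rice cells takes part in the response to fungal elicitors, had 2471 and 3671 (-0.52). CIPK10 was read by 4 probe sets, all with the lower signal in yellow leaf tips, from -0.54 to -0.16 (mean -0.35).

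CIPK23, which with CBL1 activates the potassium channel AKT1 in rice roots, had 1506 and 497 on its 2 probe sets in yellow leaf tips and 1907 and 764 in green leaf tips (-0.29 and -0.55). AKT1 itself, named here after its value was seen and read by a probe set with shared probes, had 798 in yellow and 1071 in green leaf tips (-0.36). CIPK24, the rice counterpart of the salt tolerance kinase SOS2 and the partner of CBL4, had 1237 and 1121 (0.19), within the probe-set spread of 0.30. With centring on the spike-in controls CIPK24 was at -0.00133.

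CIPK7 needs care, because its entry in the gene table also lists TATA and THA4, names of a component of protein transport into the thylakoid. Its bright probe set read 8348 in yellow and 8631 in green leaf tips (0.00), the other 826 and 1236 (-0.52). Which transcript each reads was not tested. CIPK32 (0.45) and the sensor CML3 (0.48) overlap in the gene table, so their signals may not be separate. The CIPK32 probe sets read 3149 and 96.8 in yellow and 2122 and 78.7 in green leaf tips (0.62 and 0.29). The brighter has a name that marks shared probes, and the green signal of the dimmer lay inside the range of the bacterial controls. In all, 10 members overlap another gene there, and 14 kept members were read only by probe sets whose names mark shared probes or possible cross-hybridization. Probes shared by transcripts of the same gene were not told apart from probes shared by different genes. CIPK19, CIPK16, CIPK17, CIPK25 and CIPK12 ran from 0.32 to 0.50, and CIPK1 and CIPK18 were at -0.42 and -0.32. Of these, CIPK17, CIPK12 and CIPK18 stayed within the probe-set spread at their signals.

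**Figure D4:**
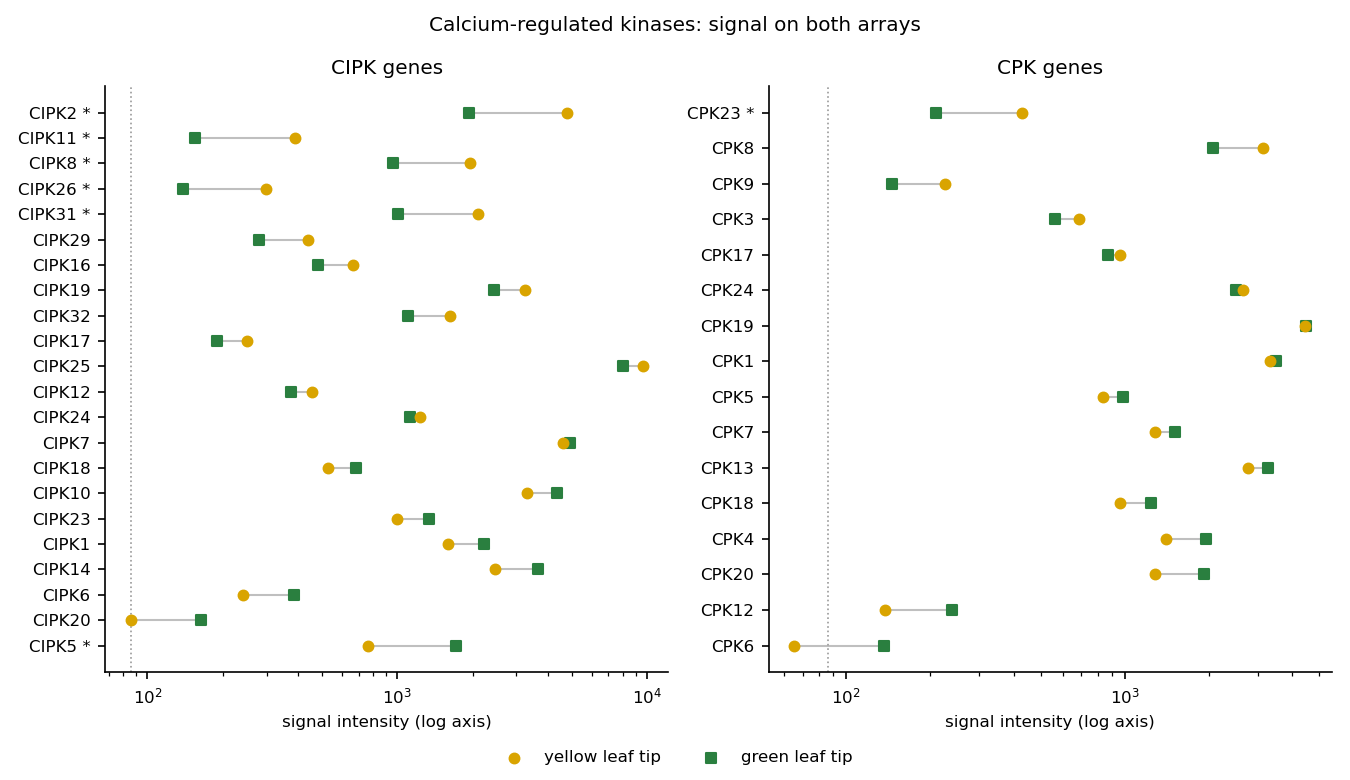
Signal intensity (x axis, log scale) of each kept CIPK and CPK gene (y axis, ordered by log2 difference) on the yellow (circles) and green (squares) leaf tip array, with the filter level of 86.0 as a dotted line and an asterisk at genes past 2-fold. CIPK genes spread to both sides, from CIPK5 at -1.09 to CIPK2 at 1.35, while most CPK pairs lie close together; signals of different genes are not comparable.

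The CPK genes were less spread by SD over genes, 0.50 against 0.70 for CIPK genes and 0.63 for all genes. Of the 16 kept, 10 lay within 0.5 of 0, beside 10023 of all 14697 kept genes, so by this count they were not closer to 0 than genes in general. CPK23 alone reached 2-fold (6.25%, beside 5.57% of all kept genes higher). CPK23, listed also as spk and described in rice as a seed kinase that acts on sucrose synthase, had 428 in yellow and 210.3 in green leaf tips, a log2 difference of 1.001 that lay on the threshold itself. It overlaps a non-coding RNA gene in the gene table, its probe set is of a kind whose name marks shared probes, and 3 other settings ended its call. CPK8 had 3146 in yellow and 2076 in green leaf tips (0.64), beyond the probe-set spread of 0.22. CPK9, which in rice is linked to drought tolerance, had 226 and 147 (0.60).

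At the low end, CPK6 had 65.3 in yellow and 137 in green leaf tips (-0.81), with a probe-set spread of 0.77. CPK12, known in rice for raising salt tolerance by restraining reactive oxygen, had 138 and 241 (-0.66). CPK20 had 1284 and 1927 (-0.53). CPK4, which protects rice membranes under salt and drought, had 1406 and 1967 (-0.43).

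The other CPK genes lay between -0.32 and 0.32. CPK19 had 4440 in yellow and 4490 in green leaf tips (0.03), CPK1 3329 and 3496 (-0.02), and CPK24, known in rice from cold tolerance, 2657 and 2504 (0.13). CPK7 had 1281 and 1520 (-0.19). CPK13, whose synonyms also include OsCDPK7, a kinase of cold and salt tolerance, read 4845 and 715 on its 2 probe sets in yellow leaf tips and 5558 and 1007 in green leaf tips (-0.15 and -0.43). CPK3 (0.32), CPK17 (0.20), CPK5 (-0.18) and CPK18 (-0.32) completed the family.

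The 11 members below the filter were 5 sensors and 6 kinases. On the green leaf tip array all 11 lay inside the range of the bacterial controls, and 7 did so on both arrays. The highest green control, 97.6, exceeds the filter level of 86.0, so the green count partly restates the filter. By direction, 8 of 11 were above 0, all 5 sensors among them, beside 50.7% of all 3208 genes below the filter. CML24 read 92.3 in yellow and 29.2 in green leaf tips (1.20), and CPK21, a rice kinase of abscisic acid and salt responses, 100.5 and 34.1 (1.17). CML14 had 48.3 and 14.7 (0.98), CML28 53.9 and 17.6 (0.98), and CIPK21 109 and 60.2 (0.72). CBL5, listed also as CBL2, had 74.0 and 59.6, and CML32 31.9 and 21.5. CIPK30, CPK2, CPK22 and CPK29 read at most 14.5 on either array. Without a filter, 7.68% of all genes were 2-fold higher and 4.4% lower in yellow leaf tips, and the 4 sensors then higher were CML24, CML4, CML14 and CML28. That setting also shifts the centre, and CML14, CML28 and CML4 passed 2-fold only with the shift. For CML4 the probe set below the filter was needed as well.

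**Figure D5:**
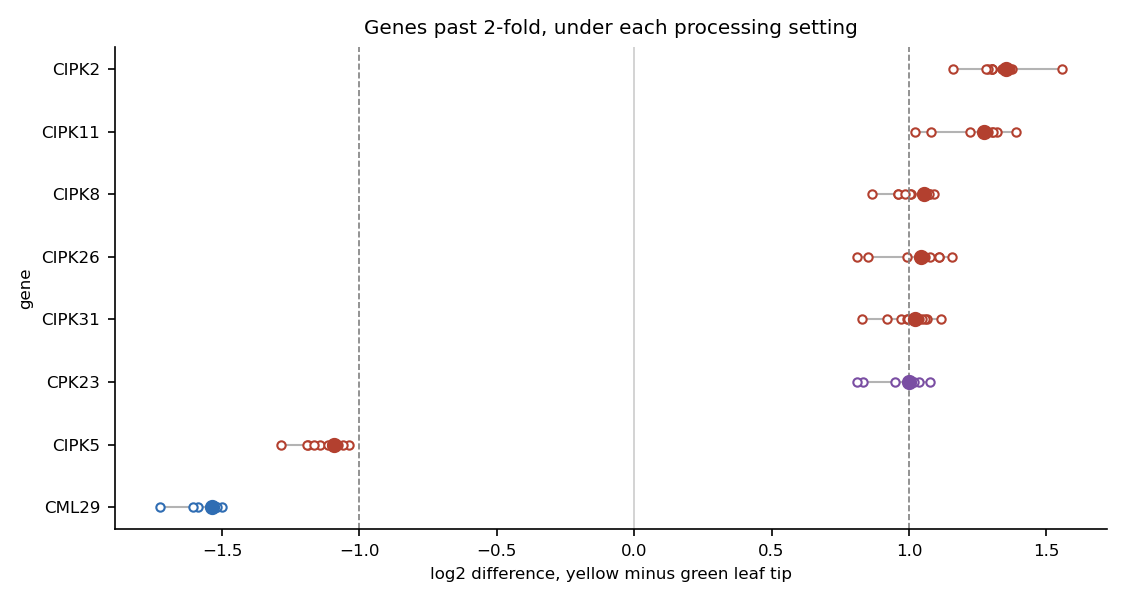
Log2 difference, yellow minus green leaf tip (x axis), of the 8 genes past 2-fold (y axis), filled points as reported and open points under each other setting in which the gene was measured, with dashed lines at a fold of 2. CIPK2, CIPK11, CIPK5 and CML29 stay outside the dashed lines throughout, and CIPK8, CIPK26, CIPK31 and CPK23 straddle the upper one.

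Genes around the sensors and kinases were matched by symbol in the same way. Of the 3 calmodulin genes, none reached 2-fold: CAM3 had 8268 in yellow and 4339 in green leaf tips (0.98), CAM1 5187 and 4595 (0.22), and CAM2 4955 and 5246 (-0.03). Without a filter, which shifts the centre, CAM3 was 2-fold higher. CCAMK, the calcium and calmodulin-dependent kinase of root symbiosis, was at 1.32 by its mean, but its probe sets read 471 and 356 (0.43) and 158 and 17.7 (2.21). The green signal of 17.7 lay inside the range of the bacterial controls, and by its brightest probe set alone CCAMK was within 2-fold. The calmodulin-binding kinase CAMK1 had 2742 and 2390 (0.25). 

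The genes that move calcium, as far as matched and kept, stayed within 2-fold. All 9 kept genes of calcium pumps and exchangers did, with a median of 0.03: the vacuolar exchanger CAX1a had 1229 in yellow and 894 in green leaf tips (0.50), the calcium ATPase ACA5 1305 and 1025 (0.39), ACA7 154 and 294 (-0.79), and ACA8 averaged -0.23. The 2 kept channel genes, TPC1 (-0.31) and GLR3.1 (-0.03), did not reach it either. No gene of the channel families CNGC, OSCA and MCU was matched, so most channels were not covered. The calreticulin gene CRT1, a calcium-binding chaperone of the endoplasmic reticulum, had 8481 in yellow and 5605 in green leaf tips (0.65).

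Of 23 kept genes in families that hold targets of CIPK or CPK kinases, 5 were 2-fold higher and none lower, beside 5.57% and 3.18% of all kept genes, with a median of 0.00. The count of higher genes was between 3 and 5 over the other settings. Below the filter, the sodium transporter gene HKT1.5 had 14.2 in yellow and 143 in green leaf tips (-2.12). The potassium transporter gene HAK4, also below it, had 2.30 and 47.3 (-1.44). Without a filter these 2 counted as lower, but the yellow signal of HKT1.5 and both signals of HAK4 lay inside the range of the bacterial controls. The ammonium transporter gene AMT1, whose Arabidopsis counterparts are phosphorylated by CIPK23, had 1399 in yellow and 480 in green leaf tips (1.55), while its dimmer probe set below the filter read 77.6 and 64.7 (0.25). AMT1;2 had 266 and 79.5 (1.55), with a green signal inside the range of the bacterial controls, and it passed the filter through the yellow array. The potassium transporter genes HAK1, HAK27 and HAK23, named after their values were seen, were at 1.37, 1.16 and 1.03, and HAK1 and HAK23 rested on probe sets with shared probes. HAK11 was at -0.96 and HAK7 at -0.70.

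The kinases related to CIPK by sequence but not bound by CBL sensors had 1 of 13 members 2-fold higher, beside 5.57% of all kept genes, and a median of 0.51, beside 0.08 for all genes. That member was SAPK3, an osmotic stress kinase, with 4395 in yellow and 1435 in green leaf tips (1.65). SAPK4 was at 0.72. SAPK2 and SAPK10 were at -0.41 and -0.35. Without probe sets whose names mark shared probes this median was 0.08, over 9 genes.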

How the data were processed

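RNA from 2 leaf samples was measured on single-colour oligonucleotide arrays, 1 per group. The authors deposited signal intensity on a linear scale, 1 value per probe set and array; the software and scaling were not given in the sources. Total RNA (about 10 µg) was turned into biotinylated cRNA, per the labels' protocols. Controls (123 probe sets) took no part in the comparison. Probe sets were named through the platform annotation (22436 with 1 gene, 95 with several, 34727 with none listed), and all 17905 genes matched RefSeq's table for assembly ASM3414082v1, which served for names and neighbours only.

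The pseudocount was the 25th percentile of all values, and the filter the median of the probe-set means. A member took its matching symbol as its name, otherwise its Os-prefixed synonym, otherwise a name no other gene carried. Any member could be named, as could the calmodulin genes, CCAMK and the 2 highest and 2 lowest genes of each other list. The members, lists and settings were chosen with earlier results of these data known. Other settings changed the centring (none, quantile, loess with fraction 0.3), the pseudocount (none, or percentile 50), the filter (none, or percentile 75), the probe sets (without those named for shared probes, or the brightest of each gene) and the matching (official symbol alone). Added after seeing the data were probe sets above all bacterial controls on both arrays and centring on the spike-in controls. The calculations (Python 3.11.15, pandas 2.3.3, statsmodels 0.14.6) were tested on simulated data. No sequence was used. The number of arrays limits the precision, and no p-value was computed.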

Additional observations from a re-analysis of the deposited data

How the results depend on the processing

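Of the 8 genes past 2-fold, CIPK2, CIPK11, CIPK5 and CML29 kept their call under every other setting in which they were measured, and no called gene changed direction. The count of 6 of 38 kinases higher was 3 without centring (5.03% of all genes), 3 with the pseudocount at the 50th percentile (3.86%), 4 after quantile normalization (5.64%), 4 after loess (5.93%), 2 of 27 with the stricter filter of the 75th percentile (3.79%), 3 of 27 without probe sets that mark shared probes (5.77%), 1 of 5 by symbol alone and 2 with centring on the spike-in controls (3.89%). In all, 5 of the 8 calls lay within 0.1 of the threshold. The count of 1 kinase lower was 2 without a pseudocount (CPK6 added) and 0 of 5 by symbol alone. The count of 0 sensors higher was 4 without a filter, where the centre also shifted. The count of 1 sensor lower was 2 with the brightest probe set (CBL9 added) and 2 with spike-in centring (CML16 added). By symbol alone no sensor was left to measure. Medians moved by more than 0.1 or changed sign as follows, where spike-in centring shifts every gene alike and puts the median of all genes at -0.112. The sensor median was 0.31 without a filter, -0.000928 without shared-probe sets, 0.22 with the brightest probe set, -0.0774 above the bacterial controls and -0.0830 with spike-in centring. The kinase median was -0.0902 under the stricter filter and -0.11 with spike-in centring. The CIPK median was 0.12 and 0.13 under the same settings. The CPK median was 0.13 without shared-probe sets, 0.0340 by symbol alone and -0.29 with spike-in centring. The CML median was 0.13 after loess, 0.31 without a filter, 0.22 with the brightest probe set and -0.28 with spike-in centring. The CBL median was 0.31 without a filter and 0.00155 with spike-in centring. Fewer genes were measured under the stricter filter, above the bacterial controls, without shared-probe sets and by symbol, and more without a filter; otherwise the cause was not tested. No paired analysis was possible because each group has 1 array. A signal inside the range of the bacterial controls limits what can be said of 11 members below the filter, of CML3 and CML17, and of the dimmer probe set of CIPK32.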
